A study of Mus musculus with 40 samples.

Results

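The arrays described here compare mice on a high-fat diet with mice on a low-fat diet at weeks 6, 9, 12 and 15. These weeks are counted from day 14 of feeding, so that 14 days on the diets come before week 0. The arrays were chosen by their diet and week labels as every array of the 2 diets at those weeks without the plant formulation that other groups received, which gave 8 of the 40 arrays of the series, 1 per diet and week, paired by week. The pairs of weeks 3 and 18, 4 further arrays, serve as checks only. The question put to them is how a fat-rich diet changes gene expression in the cells of subcutaneous fat over the months in which mice gain weight. All animals were C57BL/6J mice, weaned at 3 to 4 weeks of age, divided at random into diet groups and kept under 12 hours of light a day. The low-fat group (LFC) took 10% of its calories from fat, and the high-fat group (HFC) took 60% from fat with added sucrose. Every 3 weeks, 5 animals of each group were killed. The labels call the material subcutaneous SVCs and the series calls it infiltrating macrophages. They give neither the sex of the mice nor how many mice stand behind an array.

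Subcutaneous fat holds adipocytes, which store fat, and around them a stromal vascular fraction of fibroblast-like progenitors, vessel cells, macrophages and lymphocytes. As fat expands in obesity, macrophages enter it and take up lipid, the matrix around the adipocytes is rebuilt, and the adipocytes become less responsive to insulin. Adipocytes make fatty acids from sugar, a pathway that insulin and carbohydrate drive and that dietary fat holds down.

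RNA was measured with single-colour Agilent arrays, and the signal is a background-corrected intensity. A level below is the log2 intensity of a gene minus the log2 of the 75th percentile of its array, so that 0 is that percentile. Where a gene has 4 values for a diet, they are those of weeks 6, 9, 12 and 15 in that order. On the low-fat arrays the 75th percentile of intensity was 612 at week 6, 1258 at week 9, 1410 at week 12 and 862 at week 15. On the high-fat arrays it was 810, 1623, 714 and 1114 in the same order. The share of probes well above background was 64.6%, 63.9%, 75.3% and 75.5% on the low-fat arrays and 71.0%, 70.2%, 65.7% and 71.5% on the high-fat arrays. Each of these 8 arrays had a median rank correlation with the others of the series between 0.888 and 0.940. On the low-fat array of week 3 only 16.8% of probes were well above background, its 75th percentile was 7.86 and its correlation was 0.430. The number of arrays, 4 per diet, limits the precision of every value. No label says that the 4 arrays of a diet are from separate animals or pools, so the errors and p-values measure only the spread between arrays. The series record speaks of 3 biological replicates, while the files hold 1 array per diet and week, and how the 2 relate is not stated.

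Before the diets are compared, 3 sets of marker genes show how the 8 arrays differ in content. Adipocyte genes (15 tested, among them Adipoq, Plin1 and Fabp4) had a mean level of 1.27, 5.19, 5.15 and 2.36 on the low-fat arrays of weeks 6, 9, 12 and 15. On the high-fat arrays it was 1.25, 4.89, 3.04 and 1.77. Both arrays of week 9 and the low-fat array of week 12 were thus the most adipocyte-rich. Immediate-early genes (14 tested), which cells switch on within minutes of a stimulus and during tissue digestion, had mean levels of 5.20, 0.44, 0.20 and 5.28 on the low-fat arrays and 5.26, 3.22, 5.21 and 4.96 on the high-fat arrays. Low levels of these genes and high levels of adipocyte genes met on the low-fat arrays of weeks 9 and 12. Skeletal muscle genes (11 tested) stood at 6.05, 5.51, -4.72 and -0.89 on the low-fat arrays and at -1.37, -4.73, 5.01 and 0.74 on the high-fat arrays, so that the diet with more muscle RNA was low fat at weeks 6 and 9 and high fat at weeks 12 and 15. Of the 11, 8 were saturated on some array, so that the highest levels are lower limits, and the other 3 had median differences of -9.15, -13.34, 9.81 and 2.75 by week. Acta1 had the brightest probe of the muscle list, and on the high-fat array of week 9 only 7 of the 11 members were well above background. The members that were not were Ckm, Actn3, Pvalb and Mb, and differences taken against such levels are not exact. The pair of week 12 therefore differed in adipocyte, immediate-early and muscle genes at once. In bulk RNA, fewer cells of a type and less RNA per cell cannot be told apart, and the part of these 3 lists in the differences given below was not tested.

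**Figure D1:**
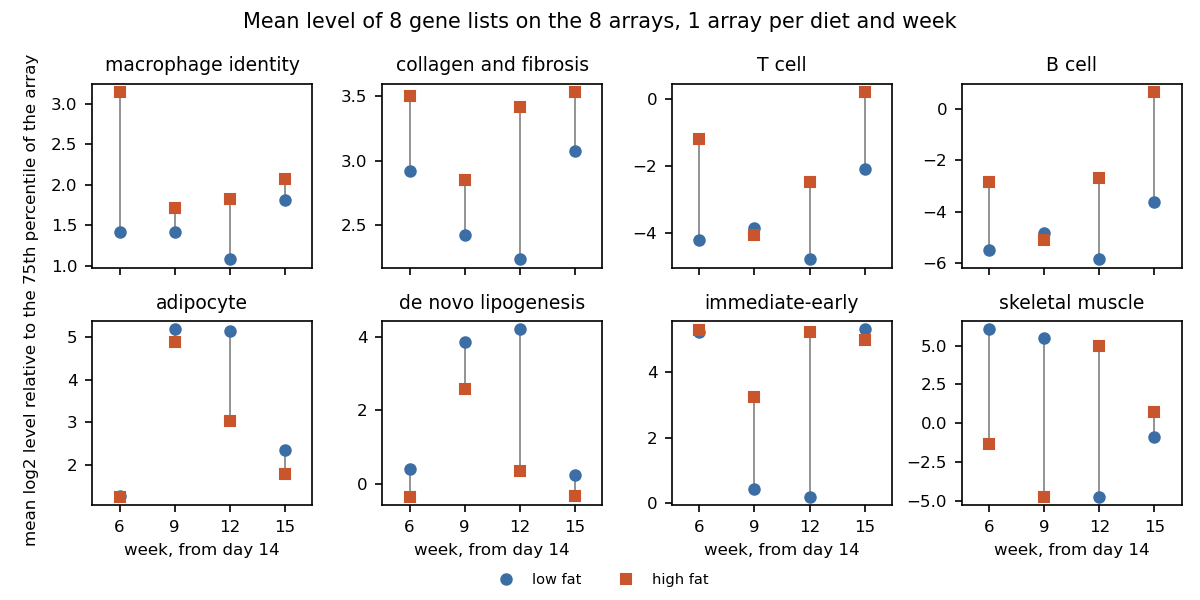
Mean log2 level of 8 gene lists on each array (points, blue circles for low fat and orange squares for high fat), by week counted from day 14 of feeding; a grey line joins the 2 arrays of a week. The collagen and macrophage lists were higher on the high-fat array in each of the 4 weeks, while the muscle list changed direction between weeks.

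Across the 4 weeks, genes of macrophages, fibroblasts, collagens and complement were mostly higher on the high-fat arrays, and genes of fatty acid synthesis were mostly lower. No single gene passed the test. Of 22212 genes tested with limma, with the week as a block, 0 were higher (0.0%) and 0 were lower (0.0%) at an adjusted p under 0.05, and the lowest adjusted p was 0.603, so that no gene named below had a lower one. At an unadjusted limma p under 0.05 there were 914 genes higher (4.11%) and 917 lower (4.13%). These 2 counts were 1205 and 313 with a normexp background correction, and 478 and 577 without week 6. The test named in the study's methods, run gene by gene without moderation, gave 0 after adjustment and 387 higher and 301 lower before it. With 4 pairs, an exact two-sided permutation test of a single gene cannot go below a p of 0.125, so none is given. Counted without a test, 2019 genes (9.09%) were higher in all 4 weeks and 1908 (8.59%) were lower in all 4. The counts of list members given below are to be set against these 2 shares. A difference of at least 2-fold in the same direction in all 4 weeks was seen for 42 genes higher (0.189%) and 50 lower (0.225%). These last counts depend on the scaling and on each week: with a normexp background correction they were 111 and 5, and over 3 weeks in place of 4 they were 111 and 159 without week 6, 355 and 263 without week 9, 83 and 222 without week 12 and 147 and 279 without week 15. The 4 high-fat arrays all lay above the 4 low-fat arrays for 224 genes (1.01%) and below them for 139 (0.626%).

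Single weeks differed far more than the weeks had in common. At week 6, 2595 genes were at least 2-fold higher on the high-fat array (11.7%) and 2584 at least 2-fold lower (11.6%). Week 9 had 1783 (8.03%) and 1785 (8.04%), week 12 had 5409 (24.4%) and 5589 (25.2%), and week 15 had 1527 (6.88%) and 3544 (16.0%). Across genes, the differences of weeks 6 and 9 had a Pearson correlation of 0.35, and the other 5 pairs of weeks ranged from -0.07 to 0.19. By Spearman's rank correlation weeks 6 and 9 were at 0.17 and the other 5 pairs between 0.03 and 0.17. Genes are not independent replicates, and these correlations are a description only. Within weeks 6, 9 and 15 the 2 arrays of a pair deviated from the mean of their diet alike, with correlations of 0.618, 0.535 and 0.509, and at week 12 they deviated in opposite ways, at -0.341. The low-fat array of week 12 correlated in this way at 0.707 with the high-fat array of week 9, while the low-fat array of week 9 correlated at -0.09 with the high-fat array of week 12. The muscle list was low on the first 2 of these arrays and high on the other 2. The 2 arrays labelled week 9 were on the same slide and scanned on the same day. The 2 labelled week 12 were on different slides, scanned together on another day. Whether the week labels of these 4 arrays are right could not be checked beyond this, and the pairs were kept by their labels. Exchanging the low-fat arrays of weeks 9 and 12, a choice made after seeing the data, leaves the means over the 4 weeks and the overlap of the diets as they are but changes the weekly differences and what holds in all 4 weeks. It gave 122 genes at least 2-fold higher in all 4 weeks and 63 lower. By limma it gave 0 genes, with a lowest adjusted p of 0.419 (0.419 to 0.974 over all alternatives) and 1113 higher and 1232 lower at an unadjusted p under 0.05. Over all genes, 2200 (9.90%) were then higher in all 4 weeks and 2037 (9.17%) lower. Genes higher in all 4 weeks were then 3 of 14 for macrophage identity against 6 by the labels, 8 of 11 for T cells against 2, 8 of 12 for the cell cycle against 2, 5 of 7 for mast cells against 2 and 12 of 18 for collagens against 12. Of 15 lipogenic genes, 11 were lower in all 4 against 12.

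Genes higher in all 4 weeks were ranked by the smallest of their weekly differences, and Sfrp4, Dact2 and Anxa8 were among the leading 10. Sfrp4, a secreted protein that binds Wnt ligands and is made in fat, stood at 0.72, -0.73, -0.42 and 0.87 on the low-fat arrays of weeks 6, 9, 12 and 15 and at 2.47, 1.98, 2.11 and 2.88 on the high-fat arrays. Every high-fat array lay above every low-fat array, and the mean difference was 2.26 ± 0.29 (SE, n = 4 pairs), or 4.78-fold. Here and below, the SE is the moderated one of the limma fit. It draws on the spread of all genes and is not that of the 4 differences alone. Dact2, an intracellular modulator of the same pathway, stood at 0.26, -1.03, -0.81 and 0.22 on low fat and at 2.08, 1.55, 0.68 and 1.89 on high fat. Its diets did not overlap either, with a mean difference of 1.89 ± 0.30, or 3.71-fold. Anxa8, a calcium-dependent membrane-binding protein, stood at 0.28, 0.24, -0.37 and -1.34 on low fat and at 1.74, 2.77, 0.92 and 0.59 on high fat. These values were again apart, and the difference was 1.80 ± 0.32, or 3.49-fold. The limma adjusted p was 0.603 for each of the 3. Their shared direction in 4 of 4 weeks follows from how they were chosen.

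The other 7 genes that led the higher side were S1pr4, Cd163l1, Grap2, Slamf1, Eomes, B3gnt5 and Aqp3, several of them genes of lymphocytes. S1pr4, a receptor for sphingosine 1-phosphate on lymphoid cells, stood at -5.46, -5.63, -5.61 and -4.35 on low fat and at -3.78, -4.04, -3.57 and -2.68 on high fat. Its values did not overlap between the diets, and the mean difference was 1.74 ± 0.25, or about 3.35-fold, with 3 of 4 low-fat arrays well above background. As the other low-fat level was not, this fold is approximate. Cd163l1, a scavenger receptor that marks gamma-delta T cells in mice, stood at -1.59, -5.46, -5.37 and -2.74 on low fat and at 0.14, -2.39, -1.57 and 0.22 on high fat, a mean difference of 2.89 ± 0.40, or 7.40-fold. Its high-fat array of week 9 lay below the low-fat array of week 6, so the diets overlapped. Eomes, a transcription factor of cytotoxic lymphocytes, Slamf1, a receptor between lymphocytes, and Aqp3, a channel for water and glycerol, were well above background on all 4 high-fat arrays but on only 1 low-fat array each, and B3gnt5, a glycosyltransferase, on 2. Their low-fat levels are therefore not measured well enough for a fold. Grap2, an adaptor of T cell receptor signalling, was about 6.36-fold higher, with 3 low-fat arrays well above background, so that its fold is approximate too. These 7 genes were chosen for being higher in all 4 weeks and well above background on all 4 high-fat arrays. Their difference at week 9 and their detection on high fat follow from that choice. Eomes, Slamf1 and Aqp3 entered the test through their high-fat arrays alone. The part of lymphocyte RNA in them was not tested.

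On the lower side, genes lower in all 4 weeks and well above background on all 4 low-fat arrays were ranked in the same way. Their direction and their detection on low fat follow from that choice. The leading 10 were mixed in function. Tox3, a nuclear protein of the high-mobility-group family, stood at -1.52, -2.66, -3.89 and -2.35 on low fat and at -3.36, -4.79, -5.40 and -4.75 on high fat. It was lower by 3.92-fold, with a mean difference of -1.97 ± 0.28 (SE, n = 4 pairs) and overlap between the low-fat array of week 12 and the high-fat array of week 6. Gsta1, a glutathione transferase, stood at -3.36, -0.51, -1.42 and -2.73 on low fat and at -4.94, -2.25, -3.09 and -5.12 on high fat, 3.59-fold lower with a difference of -1.84 ± 0.28. The high-fat array of week 9 lay above the low-fat arrays of weeks 6 and 15. Pdzk1ip1, a small membrane protein of epithelia, stood at 2.76, -0.95, 0.96 and -2.11 on low fat and at 1.19, -4.07, -3.68 and -3.92 on high fat, 6.90-fold lower. Plekhg6, a guanine nucleotide exchange factor, was 4.40-fold lower and Ftdc2, a ferritin-like gene, 3.81-fold lower. The unnamed transcript 2010003K11Rik was 7.66-fold lower, from levels of 2.39 and 2.27 on the low-fat arrays of weeks 9 and 12. Its mean difference of -2.94 ran from -3.35 to -1.85 with 1 week left out and was -1.93 with a normexp background correction. Gm7191 was not well above background on any high-fat array and was at least 4.01-fold lower. Acox2, a peroxisomal oxidase of bile acid intermediates, Ripk4, a kinase of epidermis, and LOC100046390 were well above background on 1, 2 and 1 high-fat arrays, so that no fold is given for them. Gm7191, Acox2 and LOC100046390 entered the test through their low-fat arrays alone. A normexp background correction moved the median of all genes to 0.33. With it the last 4 changed sign, to 0.65 for Gm7191, 0.65 for Acox2, 0.29 for Ripk4 and 0.42 for LOC100046390, of which Ripk4 stayed below that median. Most of the others shrank, to -0.11 for Tox3, -0.70 for Gsta1, -0.48 for Plekhg6, -0.33 for Ftdc2 and -1.32 for Pdzk1ip1, all below that median too.

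**Figure D2:**
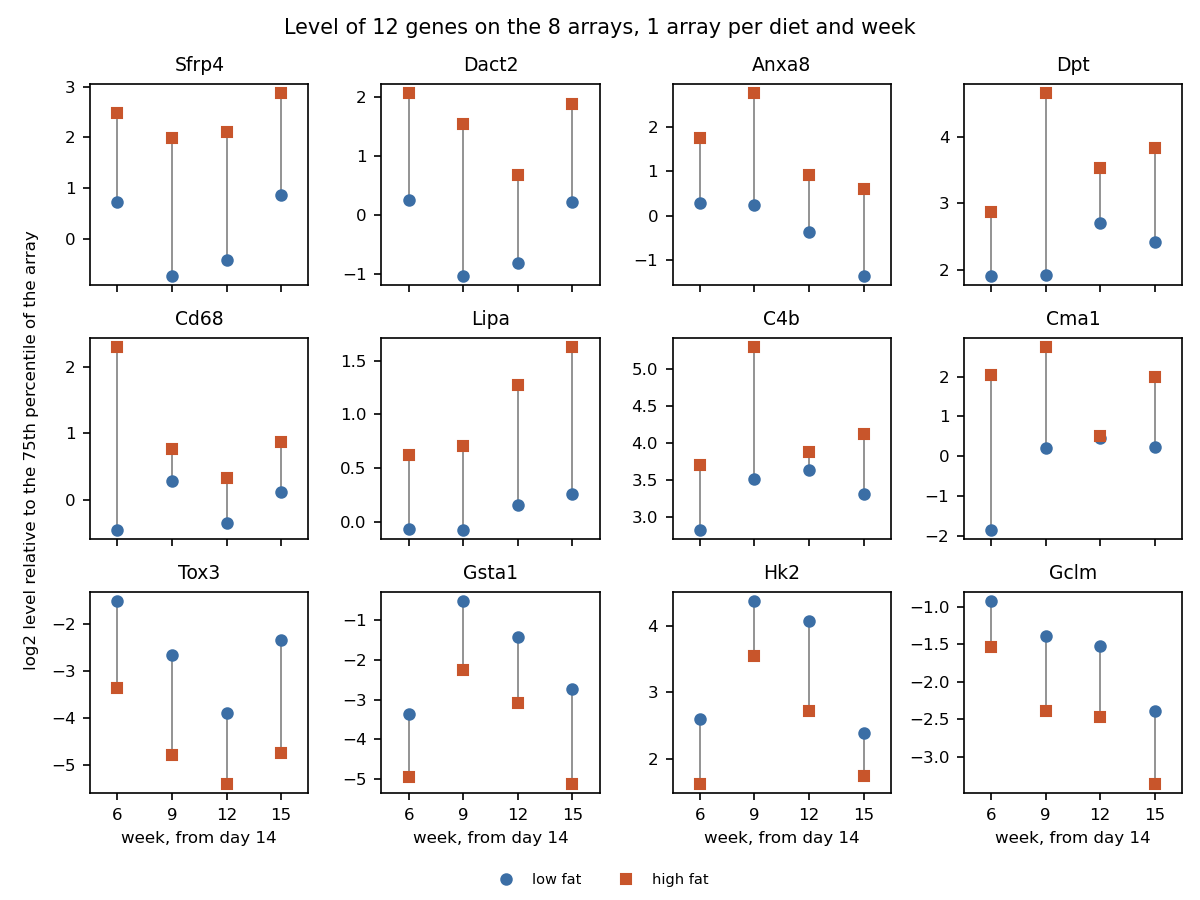
Log2 level of 12 genes on each array relative to the 75th percentile of that array (blue circles for low fat, orange squares for high fat), by week counted from day 14 of feeding; a grey line joins the arrays of a week. Sfrp4, Dact2, Anxa8, Dpt, Cd68, Lipa, C4b and Cma1 were higher and Tox3, Gsta1, Hk2 and Gclm lower on the high-fat array in each of the 4 weeks.

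Macrophage genes were higher on the high-fat arrays, most of all at week 6. Of 14 macrophage identity genes, 6 were higher in all 4 weeks (42.9%, against 9.09% of all genes), 0 were lower in all 4 and all 14 had a mean above 0. Their median difference was 0.83, against -0.02 over all genes, and by week it was 1.99, 0.46, 0.44 and 0.35. It ran from 0.42 to 0.96 with 1 week left out. The mean level of the list was 1.42, 1.41, 1.08 and 1.81 on low fat and 3.15, 1.72, 1.82 and 2.07 on high fat. All 14 were well above background on all 8 arrays, so macrophage RNA was present throughout, beside that of the other cell types named here. Cd68, a glycoprotein of macrophage lysosomes, stood at -0.46, 0.28, -0.36 and 0.12 on low fat and at 2.31, 0.76, 0.32 and 0.86 on high fat. The diets did not overlap, and the difference was 1.17 ± 0.47 (SE, n = 4 pairs), or 2.25-fold. Adgre1, which encodes the macrophage surface protein F4/80, stood at 0.75, 2.06, 1.59 and 1.97 on low fat and at 2.87, 2.73, 2.03 and 2.29 on high fat, 1.85-fold higher with overlap. C1qa, a part of the complement starter C1q that macrophages make, stood at 2.41, 2.23, 1.76 and 2.09 on low fat and at 4.65, 2.68, 2.20 and 2.65 on high fat. Csf1r, the receptor that keeps macrophages alive, stood at 1.43, 1.49, 1.45 and 0.61 on low fat and at 3.66, 2.28, 1.21 and 1.47 on high fat, with the low-fat array of week 15 far below the other 3. Without week 6 the mean difference was 0.64 for Cd68, 0.48 for Adgre1, 0.48 for C1qa and 0.47 for Csf1r. Relative to the median of all genes, the list was higher by 0.85, and by 0.36 with a normexp background correction. Lyz2 was saturated on 3 arrays of each diet, so its difference does not measure its RNA.

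Genes of resident or interleukin-4 type macrophages shared the week 6 difference. Of 12 tested, 5 were higher in all 4 weeks (41.7%) and 0 lower, with a median of 0.97 and weekly medians of 3.04, 0.54, 0.35 and 0.35. The list median ran from 0.37 to 1.27 with 1 week left out. Folr2, a folate receptor of resident macrophages, stood at 0.44, 1.76, 1.27 and 1.43 on low fat and at 3.95, 2.91, 1.85 and 2.16 on high fat. The diets did not overlap, and it was 2.82-fold higher, by 1.49 ± 0.56, which without week 6 was 0.82. Clec10a, a sugar-binding receptor of the same cells, stood at 1.59, 4.58, 4.28 and 4.39 on low fat and at 4.29, 4.95, 4.38 and 4.87 on high fat, so that its low-fat array of week 6 lay far below the other 7. Mrc1, the mannose receptor, stood at 0.57, 1.75, 1.52 and 2.03 on low fat and at 2.83, 2.46, 1.68 and 2.27 on high fat, a mean difference of 0.84, which without week 6 was 0.37. The mean level of this list on the low-fat array of week 6 was -0.78, the lowest of the 8 arrays, and on the high-fat array of that week it was 2.19, the highest.

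Genes of the lipid-handling macrophages of obese fat were less uniform. Of 14 tested, 3 were higher in all 4 weeks (21.4%) and 0 lower, the median was 0.77, and by week it was 0.74, -0.21, 1.92 and -0.08. Means were above 0 for 10 and below 0 for 4, down to -1.44, and the genes named here are all among the 10. Over the sets of 3 weeks the median was between 0.18 and 0.91. Lipa, the lysosomal lipase that breaks down taken-up lipid, stood at -0.06, -0.07, 0.15 and 0.26 on low fat and at 0.63, 0.71, 1.27 and 1.63 on high fat. Every high-fat array was above every low-fat array, with a difference of 0.99 ± 0.27, or 1.98-fold. Ctsk, a protease that cuts collagen, was 2.63-fold higher, by 1.40 ± 0.44, in 4 of 4 weeks. Trem2, the lipid receptor that names this macrophage state, stood at 1.51, 0.83, -0.97 and 0.80 on low fat and at 2.60, 0.48, 1.82 and 1.32 on high fat. Itgax, which encodes CD11c, stood at -2.11, -1.31, -4.47 and -1.12 on low fat and at 0.18, -1.73, -0.99 and -0.36 on high fat. Both of these were higher in weeks 6, 12 and 15 and lower at week 9.

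Cytokine genes, like the immediate-early genes, were low on the low-fat arrays of weeks 9 and 12. All 16 inflammatory cytokine genes tested had a mean above 0, but only 1 was higher in all 4 weeks (6.25%). Their median difference was 2.34, which ran from 0.26 to 3.24 with 1 week left out. The weekly medians of these genes were 1.46, -0.09, 7.46 and -0.32. Their mean level was 1.26, -3.52, -5.85 and 1.79 on low fat and 2.47, -3.32, 1.52 and 1.71 on high fat. Tnf stood at 1.09, -4.68, -5.45 and 1.24 on low fat and at 3.63, -4.66, 1.63 and 0.76 on high fat. Il6 stood at 3.15, -5.66, -6.13 and 6.18 on low fat and at 2.77, -3.53, 4.99 and 4.48 on high fat. Its difference of 11.12 at week 12 was among the 3 largest of that week and stands against -0.38 at week 6 and -1.70 at week 15. Ccl2, the chemokine that draws monocytes into tissue, stood at 4.17, 1.49, -2.07 and 5.83 on low fat and at 6.23, 2.41, 5.63 and 5.81 on high fat. The low levels fell on the low-fat array of week 12 and on both arrays of week 9, the 3 arrays on which the immediate-early list was also lowest. Fos stood at 5.69, -2.26, -2.76 and 5.65 on low fat and at 5.95, 2.13, 5.02 and 5.50 on high fat, and Egr1 at 6.13, -0.07, -0.31 and 6.11 and at 6.04, 5.29, 6.28 and 5.84. Of the 14 immediate-early genes 0 kept a direction over the 4 weeks, with weekly medians of -0.08, 2.57, 4.88 and -0.27 and an overall median of 1.75, so that at week 9 they were higher on high fat while the cytokine genes were not. The 9 genes tested of the heat shock and digestion list, which also holds Gadd45b, Socs3 and Btg2, did the same. Their weekly medians were -0.07, 1.58, 1.93 and -0.27, with 0.96 over the 4 weeks. Hspa1a, with 2 high-fat arrays saturated, was higher by 5.15 at week 9. The part of tissue handling in the cytokine differences was not tested.

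Collagen and matrix genes were higher on high fat in each week, most at week 12. Of 18 collagen and matrix genes, 12 were higher in all 4 weeks (66.7%), 0 were lower, and all 18 had a mean above 0. The median difference was 0.71, and by week 0.51, 0.53, 1.05 and 0.46. Their mean level was 2.91, 2.42, 2.23 and 3.08 on low fat and 3.50, 2.85, 3.41 and 3.54 on high fat. For 4 of them the diets did not overlap, against 1.01% of all genes. Col5a1, a collagen that sets fibril width, stood at 3.09, 2.80, 2.55 and 3.15 on low fat and at 4.09, 3.36, 3.78 and 4.00 on high fat, a difference of 0.91 ± 0.26 (SE, n = 4 pairs), or 1.88-fold. Its partner chain Col5a2 stood at 0.55, 1.06, 0.81 and 1.62 on low fat and at 2.27, 1.68, 2.20 and 2.48 on high fat, 2.21-fold higher. The diets did not overlap for either chain. Fn1, the matrix protein fibronectin, stood at 1.15, 0.20, 0.42 and 2.23 on low fat and at 3.14, 2.24, 1.53 and 2.76 on high fat, 2.67-fold higher by 1.42 ± 0.36. Postn, a matrix protein of remodelling tissue, was higher by 0.99 ± 0.29, Tgfb1, the growth factor that induces collagen, by 0.74, Lox, which cross-links collagen, by 0.72 and Col4a1 of the basement membrane by 0.70, each in 4 of 4 weeks. Without the 4 members saturated on any array, 12 of 14 were higher in all 4 weeks and the median was 0.77. With a normexp background correction, which moved the median of all genes to 0.33, the list median was 0.22 above that of all genes.

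Markers of the fibroblast-like progenitors that lay down this matrix were also higher. Of 12, 8 were higher in all 4 weeks (66.7%) and 0 lower, with a median of 0.71 and mean levels of 2.34, 2.11, 2.0 and 2.86 on low fat and 3.27, 2.68, 2.89 and 3.52 on high fat. Dpt, a small matrix protein of fibroblasts, stood at 1.92, 1.93, 2.71 and 2.43 on low fat and at 2.87, 4.66, 3.52 and 3.84 on high fat. No high-fat array reached down to a low-fat one, and the difference was 1.48 ± 0.40, or 2.78-fold. Thy1, a surface marker of progenitors and of T cells, stood at 3.89, 2.68, 1.42 and 3.66 on low fat and at 4.72, 3.63, 4.41 and 5.00 on high fat, 2.88-fold higher. Relative to the median of all genes, the list was higher by 0.73, and by 0.34 with a normexp background correction. Pdgfra, the receptor that defines these progenitors, was higher by 0.70 in 4 of 4 weeks. Dcn had the brightest probe of the list and was saturated on all 8 arrays. Because fibroblast markers moved with the collagens, more stromal RNA and more collagen RNA per stromal cell cannot be told apart. Of 10 endothelial genes 0 were higher or lower in all 4 weeks, the median was 0.26, and without week 12 it was -0.14.

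Complement genes, which fat stroma and macrophages both express, were higher on high fat by a median under 1 in each week. Of 10 tested, 6 were higher in all 4 weeks (60.0%) and 0 lower, the median was 0.62, and by week it was 0.65, 0.83, 0.47 and 0.52. The diets did not overlap for 4 of the 10, C4b, Cfb, C2 and Cfp, against 1.01% of all genes. C4b stood at 2.82, 3.52, 3.63 and 3.31 on low fat and at 3.70, 5.31, 3.88 and 4.12 on high fat, at least 1.91-fold higher by 0.93 ± 0.34, with 1 high-fat spot saturated. Cfb, the protease of the alternative pathway, stood at 3.86, 4.11, 4.19 and 3.90 on low fat and at 4.59, 5.16, 4.23 and 4.50 on high fat. Cfp, which encodes properdin and stabilises that protease, stood at 1.45, 2.75, 2.73 and 2.87 on low fat and at 4.00, 3.56, 3.07 and 3.46 on high fat, 2.10-fold higher. Its mean difference of 1.07 ran from 0.58 to 1.32 with 1 week left out. The pair of week 12 differed least in C4b, Cfb and Cfp. C3 had the brightest probe and was saturated on 3 low-fat and 4 high-fat arrays, so it could not be compared. Relative to the median of all genes, the complement list was higher by 0.64, and by 0.18 with a normexp background correction.

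The mast cell chymases Cma1 and Mcpt4 were higher in each week, by little at week 12. Cma1, a chymase of connective tissue mast cells, stood at -1.85, 0.20, 0.46 and 0.24 on low fat and at 2.05, 2.75, 0.52 and 1.99 on high fat. Mcpt4, another chymase, stood at -2.28, -0.31, 0.23 and 0.06 on low fat and at 0.99, 2.14, 0.32 and 1.83 on high fat. The diets did not overlap for either gene, and the differences were 2.07 ± 0.64, or 4.19-fold, and 1.90 ± 0.56, or 3.72-fold. Cpa3, a carboxypeptidase of the same granules, was higher in weeks 6, 9 and 15 and lower at week 12. Kit, the mast cell growth receptor, had a mean difference of -0.50, which ran from -0.71 to -0.17 with 1 week left out. Over the 7 genes tested, 2 were higher in all 4 weeks (28.6%), the median was 1.48, with weekly medians of 3.15, 2.07, -0.64 and 1.74 and 2.32 without week 12, and the mean level was -2.40, -1.51, -1.02 and -0.93 on low fat and -0.19, 0.18, -0.94 and 0.18 on high fat.

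By their medians, T and B cell genes were higher on the high-fat arrays at weeks 6, 12 and 15 but not at week 9. Cytotoxic genes had medians above 0 in each week. T cell genes (11 tested) had weekly medians of 3.26, -0.06, 3.17 and 2.49, B cell genes (8 tested) 2.63, -0.15, 3.11 and 4.23, and cytotoxic genes (11 tested) 3.81, 0.15, 3.42 and 0.49, with 2.15 as the median of the cytotoxic genes over the mean of the 4 weeks. With the low-fat arrays of weeks 9 and 12 exchanged, the week 9 medians were 1.19 for T cell, 0.33 for B cell and 2.36 for cytotoxic genes. By the labels, 2 T cell (18.2%), 4 B cell (50%) and 6 cytotoxic genes (54.5%) were higher in all 4 weeks, and 1 T cell gene (9.09%) was lower. Of all genes, 9.09% were higher and 8.59% lower in all 4 weeks. The mean level of T cell genes was -4.19, -3.84, -4.78 and -2.10 on low fat and -1.21, -4.07, -2.47 and 0.20 on high fat. The mean level of B cell genes was -5.49, -4.84, -5.86 and -3.64 on low fat and -2.83, -5.10, -2.69 and 0.68 on high fat. The mean levels of both lists were thus below the 75th percentile on every array except the high-fat array of week 15. On the low-fat array of week 6, 4 of 8 B cell genes were well above background, against all 8 on that of week 15.

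Lck, the kinase next to the T cell receptor, stood at -1.59, -1.97, -4.50 and -0.31 on low fat and at 1.46, -1.90, -0.37 and 2.31 on high fat, 5.53-fold higher by 2.47 ± 0.69 (SE, n = 4 pairs). Cd3d, a chain of the receptor complex, stood at -2.20, -1.65, -3.81 and 0.15 on low fat and at 1.44, -2.03, 0.09 and 2.90 on high fat. Cd8a, of cytotoxic T cells, stood at -3.71, -3.56, -5.07 and -1.79 on low fat and at 0.03, -3.88, -1.88 and 1.58 on high fat. For all 3 the arrays of week 9 lay close together, while in each other week high fat was more than 2-fold above low fat. Cd4 had a mean difference of -0.59, which became 0.89 with a normexp background correction. Prf1, which encodes the pore-forming perforin, was 4.52-fold higher and Klrd1, a receptor of natural killer cells, 4.71-fold, both in 4 of 4 weeks. Ifng, the cytokine interferon gamma, stood at -3.22, -3.44, -5.66 and 0.33 on low fat and at 1.37, -3.29, 0.37 and 0.18 on high fat. At week 9 both diets were low for it and at week 15 both were near 0. Ms4a1, which encodes the B cell protein CD20, was highest on the high-fat array of week 15 at 3.23. Fcer2a, an antibody receptor of mature B cells, was higher in 4 of 4 weeks but well above background on only 1 low-fat array, so that no fold is given.

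Genes of lymph node tissue moved with them. Of 9 tested, 4 were higher in all 4 weeks (44.4%) and 0 lower, with weekly medians of 1.08, 0.23, 3.38 and 3.28. The mean level was -3.07, -4.01, -4.62 and -1.26 on low fat and -1.55, -3.84, -1.57 and 1.15 on high fat. Ltb, a signal by which lymphocytes organise lymphoid tissue, stood at -0.43, -0.21, -1.45 and 1.03 on low fat and at 1.67, 0.15, 1.06 and 4.72 on high fat, 4.48-fold higher by 2.16 ± 0.57. Glycam1, a mucin-like protein made by the vessels of lymph nodes, stood at -5.48, -8.05, -9.16 and -2.32 on low fat and at -5.94, -9.01, -2.36 and 3.78 on high fat. It was thus brightest on the week 15 high-fat array, where Fcer2a, Ms4a1, Ltb and Ccr7 also peaked. Ccl19 had the brightest probe of the list, and Glycam1, Madcam1 and Tnfsf11 were among those not well above background on every array. The part of lymph node tissue in the lymphocyte differences was not tested.

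Antigen presentation genes differed less. Of 8 MHC class II genes, 4 were higher in all 4 weeks (50%), the median was 0.83, and by week it was 0.63, -0.05, 1.05 and 1.20. Ciita, the factor that switches these genes on, stood at -1.04, -2.31, -2.10 and -1.85 on low fat and at 0.25, -2.29, -1.41 and 1.37 on high fat. Cd74 was saturated on all 8 arrays. Interferon-stimulated genes (12 tested) had 3 higher in all 4 weeks (25%, against 9.09% of all genes). Their median was 0.43, with weekly medians of 0.49, 0.20, 1.54 and -0.47. Neutrophil genes (11 tested) had 2 higher in all 4 weeks (18.2%, against the same 9.09%). Their median was 1.01, with weekly medians of 2.36, -0.62, 2.88 and 1.11. S100a8, a calcium-binding protein abundant in neutrophils, stood at -2.86, -1.21, -1.63 and 1.83 on low fat and at 0.17, -1.83, 1.29 and 2.83 on high fat.

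Fatty acid synthesis had the largest share of genes lower in all 4 weeks among the 36 lists. Of 15 lipogenic genes, 12 were lower in all 4 weeks (80.0%, against 8.59% of all genes), 0 were higher, and all 15 had a mean below 0. The median difference was -1.72, and by week it was -0.77, -0.96, -4.09 and -0.60. Without week 12 the median was -0.90, and the check pair of week 18 went the other way, with a median of 1.58, so that with the pairs of weeks 3 and 18 added the median was -0.43. The mean level was 0.40, 3.87, 4.21 and 0.23 on low fat and -0.36, 2.59, 0.35 and -0.33 on high fat. Elovl6, which lengthens newly made fatty acids, stood at 0.26, 5.70, 5.59 and 0.27 on low fat and at -0.41, 1.63, 0.46 and -0.35 on high fat, at least 6.15-fold lower with a difference of -2.62 ± 0.90 (SE, n = 4 pairs). Acly, which makes the acetyl-CoA they are built from, stood at 0.08, 4.29, 5.39 and 0.20 on low fat and at -0.21, 0.39, -0.26 and 0.13 on high fat, at least 5.58-fold lower. For both, the low-fat arrays of weeks 9 and 12 lay far above the other 6. Mlxipl, the sugar-sensing transcription factor of this pathway, stood at 1.08, 3.20, 4.40 and -3.42 on low fat and at -0.79, 2.77, -1.87 and -4.11 on high fat, 4.98-fold lower. Thrsp, a gene that follows lipogenesis, stood at 0.10, 5.68, 5.54 and 1.82 on low fat and at -0.43, 4.62, 1.55 and 0.23 on high fat, at least 3.46-fold lower, and with the pairs of weeks 3 and 18 added its mean difference was 0.84. Without week 12 the mean difference was -1.42 for Acly, -1.0 for Mlxipl and -1.06 for Thrsp. Acacb, the carboxylase isoform of mitochondria, had a mean difference of -1.74, which became 0.34 with a normexp background correction, where the median of all genes was 0.33. Pnpla3, a lipid droplet protein that lipogenic signals induce, stood at -3.56, 4.67, 4.04 and -1.94 on low fat and at -4.53, 4.66, -1.66 and -2.56 on high fat, a mean difference of -1.82 ± 1.01, which without week 12 was -0.53. The probes of Elovl6, Thrsp and Me1 were saturated on 2 low-fat arrays and that of Acly on 1, so that their levels there are lower limits. Without the 9 members saturated on any array, 3 of 6 were lower in all 4 weeks and the median was -1.78. Of the adipocyte markers, 6 of 15 were lower in all 4 weeks (40.0%), with a median of -0.85 and weekly medians of -0.24, -0.35, -2.09 and -0.58. Fabp4 had the brightest probe of the adipocyte list, and 12 of its 15 members were saturated on some array. Of the 3 that never were, 0 were lower in all 4 weeks, and their median was -0.45, with weekly medians of 1.89, 0.01, -2.38 and -1.03. The part of adipocyte RNA in the lipogenic differences was not tested.

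The promoters of 4 lipogenic genes are shown, 300 bases of each that span the start of the gene, from RefSeq on build GRCm38.p6. The 4 were chosen among the members lower in all 4 weeks after the motif matches were seen, and each holds some of the motifs marked. Capitals mark CCAAT, which is ATTGG on the other strand, the box bound by NF-Y, CACGTG, the core of the elements bound by E-box factors such as the Mlxipl product, and GGGCGG, which is CCGCCC on the other strand, the box bound by Sp1. Of 32851 promoters of this length, 37.4% hold CCAAT, 7.15% CACGTG and 35.7% GGGCGG on either strand. RefSeq gave a promoter for 13 of the 15 lipogenic genes, 18 promoters in all, of which 11 hold CCAAT, 2 CACGTG and 7 GGGCGG. The promoters of Elovl6, Acaca and Aacs and a second one of Mlxipl hold none of the 3. The window of Acly is chr11:100527951-100528250 on the minus strand, that of Mlxipl chr5:135089640-135089939 on the plus strand, that of Pnpla3 chr15:84167566-84167865 on the plus strand and that of Thrsp chr7:97417501-97417800 on the minus strand. A match is a description of the letters, not a bound site.
Acly: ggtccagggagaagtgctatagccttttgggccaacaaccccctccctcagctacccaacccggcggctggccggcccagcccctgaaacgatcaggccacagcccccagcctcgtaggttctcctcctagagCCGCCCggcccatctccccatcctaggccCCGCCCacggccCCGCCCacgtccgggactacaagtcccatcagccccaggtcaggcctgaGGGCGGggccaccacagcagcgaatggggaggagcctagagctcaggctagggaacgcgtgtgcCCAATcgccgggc
Mlxipl: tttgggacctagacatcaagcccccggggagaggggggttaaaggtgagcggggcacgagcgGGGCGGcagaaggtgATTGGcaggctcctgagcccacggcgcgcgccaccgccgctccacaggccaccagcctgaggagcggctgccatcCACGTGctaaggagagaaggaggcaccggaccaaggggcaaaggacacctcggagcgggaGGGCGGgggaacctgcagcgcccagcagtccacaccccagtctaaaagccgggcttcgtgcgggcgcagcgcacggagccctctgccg
Pnpla3: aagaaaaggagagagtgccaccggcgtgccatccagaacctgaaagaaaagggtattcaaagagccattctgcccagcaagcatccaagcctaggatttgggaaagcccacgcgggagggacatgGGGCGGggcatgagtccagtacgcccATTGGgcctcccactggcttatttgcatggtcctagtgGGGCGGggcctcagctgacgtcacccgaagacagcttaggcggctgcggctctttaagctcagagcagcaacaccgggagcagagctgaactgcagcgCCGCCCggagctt
Thrsp: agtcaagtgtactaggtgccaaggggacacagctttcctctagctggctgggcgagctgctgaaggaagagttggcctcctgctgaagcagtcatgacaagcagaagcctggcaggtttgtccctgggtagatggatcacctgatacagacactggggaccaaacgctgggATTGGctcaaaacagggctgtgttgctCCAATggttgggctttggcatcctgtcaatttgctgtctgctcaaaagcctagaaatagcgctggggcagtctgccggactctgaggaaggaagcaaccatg

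Sterol synthesis showed a weaker difference in the same direction. Of 19 genes, 3 were lower in all 4 weeks (15.8%), 0 higher, and the median was -0.95, with weekly medians of -0.51, -1.04, -1.91 and 0.06. The list median ran from -1.32 to -0.38 with 1 week left out. Sqle, which makes the first oxygenated sterol precursor, stood at 0.34, 0.71, 1.42 and -0.30 on low fat and at -0.17, -0.11, 0.24 and -0.42 on high fat. Cyp51, a demethylase of the pathway, was lower in 4 of 4 weeks with a mean difference of -1.10, which was -0.50 with a normexp background correction. Idi1 stood at 0.83, 2.83, 3.32 and 1.16 on low fat and at 0.21, 1.40, 1.41 and 1.22 on high fat.

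Fatty acid oxidation genes were mostly lower, and insulin and glucose genes were divided. Of 14 fatty acid oxidation genes, 5 were lower in all 4 weeks (35.7%) and 1 higher (7.14%), with a median of -0.91 and weekly medians of -0.61, -0.11, -2.23 and -0.11. That median ran from -1.18 to -0.25 with 1 week left out. The gene that was higher was Cpt1a, the carnitine transferase that lets fatty acids into mitochondria in most tissues, which stood at 2.03, 1.37, 0.79 and 1.70 on low fat and at 2.90, 1.67, 1.66 and 2.28 on high fat, a difference of 0.65 ± 0.26, which was 0.41 with a normexp background correction. Cpt1b, the form of muscle and brown fat, stood at 1.05, 1.36, 1.34 and -2.10 on low fat and at -2.78, 0.25, -0.30 and -2.28 on high fat, a difference of -1.69 ± 0.63, which without week 6 was -0.97. The 2 forms of the enzyme thus differed in opposite directions. Pdk4, which spares glucose during fasting, was lower in 4 of 4 weeks, with a mean difference of -1.17 ± 0.41, which became 0.96 with the week 18 pair added. Of 12 insulin and glucose genes, 4 were lower in all 4 weeks (33.3%) and 1 higher (8.33%), with a median of -0.28 and means below 0 for 7 and above 0 for 5. Of the 10 never saturated, 2 were lower in all 4 weeks, and the median was -0.05. Slc2a4, the insulin-driven glucose carrier GLUT4, stood at 3.64, 5.67, 5.45 and 2.12 on low fat and at 1.60, 4.75, 2.86 and 1.5 on high fat, at least 2.91-fold lower with a difference of -1.54 ± 0.42, with 2 low-fat arrays saturated. Hk2, which traps the glucose that enters, stood at 2.60, 4.38, 4.08 and 2.38 on low fat and at 1.62, 3.55, 2.71 and 1.74 on high fat, 1.94-fold lower. Both genes are expressed by muscle as well as fat, and the part of muscle RNA in them was not tested.

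Genes of heat-producing fat, of low oxygen, of respiration and of antioxidant defence were lower by their medians. Of 10 brown and beige fat genes, 2 were lower (20.0%) and 1 higher (10.0%) in all 4 weeks, against 8.59% and 9.09% of all genes. The median was -1.31, with weekly medians of -0.83, 0.30, -2.63 and -0.01. With 1 week left out the median ran from -1.89 to -0.57, and over the 7 members never saturated it was -0.63. Ppargc1a, the coactivator that drives mitochondrial growth, stood at 0.23, -0.05, 1.45 and -0.99 on low fat and at -1.72, -0.19, -0.88 and -1.94 on high fat. Cidea, a lipid droplet protein of beige fat, had a mean difference of -2.73, which without week 12 was -1.77. Of 12 hypoxia and vessel growth genes, 3 were lower (25%) and 1 higher (8.33%) in all 4 weeks, with a median of -0.32. The weekly medians of this list were -0.68, -0.09, -0.32 and -0.42. Its members were divided, with means below 0 for 7 and above 0 for 5, up to 1.30. Over the 11 never saturated the median was -0.14. Pdk1, which holds pyruvate back from mitochondria at low oxygen, stood at -0.14, 2.90, 3.75 and 0.15 on low fat and at -1.70, 1.06, 0.23 and -0.39 on high fat, 3.65-fold lower with a difference of -1.87 ± 0.52. Egln3, an oxygen sensor that low oxygen induces, was lower in 4 of 4 weeks with a mean difference of -1.23 ± 0.43, which was -0.46 with a normexp background correction and -0.77 without week 12. Of 15 respiratory chain genes, 4 were lower in all 4 weeks (26.7%), 0 higher, all 15 had a mean below 0, and the median was -0.64, with weekly medians of -0.95, -0.38, -1.40 and 0.09; 11 of them were saturated on some array. Of 15 antioxidant genes, 4 were lower in all 4 weeks (26.7%) and 0 higher, with a median of -0.42, which without week 12 was -0.25. Gclm, a subunit of the enzyme that starts glutathione synthesis, stood at -0.92, -1.39, -1.52 and -2.39 on low fat and at -1.53, -2.39, -2.47 and -3.36 on high fat, 1.85-fold lower with a difference of -0.88 ± 0.25, which was -0.24 with a normexp background correction. Its catalytic partner Gclc had a mean difference of -0.47.

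Genes that follow the growth of fat did not move as a group. Of 7 tested, 1 was higher in all 4 weeks (14.3%, against 9.09% of all genes). The median was 0.07, and without week 15 it was -0.12. Lep, the adipocyte hormone that reports fat stores, stood at -4.50, 2.96, 1.77 and -3.92 on low fat and at -5.47, 2.72, -1.88 and -3.78 on high fat. Mest, a gene of expanding fat, stood at -0.56, -0.18, -1.60 and -0.25 on low fat and at 0.30, 4.90, 1.08 and -0.34 on high fat, with its largest difference, 5.08, at week 9. Sfrp5, a relative of Sfrp4, was higher in 4 of 4 weeks by 0.95 ± 0.29 from very low levels.

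By their medians, proliferation genes were higher in the weeks in which T and B cell genes were. Of 12 cell cycle genes, 2 were higher in all 4 weeks (16.7%, against 9.09% of all genes), and all 12 had a mean above 0. The median was 0.96, with weekly medians of 1.26, -0.63, 1.74 and 1.39. Cdk1, the kinase that starts mitosis, stood at -3.68, -3.21, -4.55 and -3.99 on low fat and at -2.73, -2.43, -3.49 and -2.60 on high fat, 2.06-fold higher by 1.04 ± 0.26. Mcm5, of the DNA helicase, was higher by 0.93 in 4 of 4 weeks. With the week 18 pair added the mean difference of Cdk1 was -0.25, that of Mcm5 -0.05 and the median of the list -0.16.

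The other lists had no common direction. Epithelial genes (9 tested) had weekly medians of -1.77, -0.18, 1.54 and -3.76 and a median of -1.02, which became 0.23 with a normexp background correction, and mean levels of 1.79, -5.68, -5.21 and 0.23 on low fat and -0.59, -6.0, -2.76 and -3.77 on high fat. Erythroid genes (3 tested) had a median of 1.00, which without week 6 was -0.10, and Slc4a1, a membrane protein of red cells, was at 1.25 on the high-fat array of week 6 and at -3.19 or below on the other 7. Glucocorticoid and metallothionein genes (10 tested) had 1 higher and 1 lower in all 4 weeks (10.0% each) and a median of 0.48, which without week 12 was -0.07. Fkbp5, which glucocorticoids induce, had a mean difference of -0.58 ± 0.29. Clock genes (13 tested) had 0 in either direction and a median of 0.09, and Arntl, a core clock activator, was higher by 3.67 at week 9 and lower in the other 3 weeks. Ribosomal protein genes (15 tested) had 1 higher in all 4 weeks (6.67%) and a median of 0.07, which was -0.11 with a normexp background correction and -0.24 without week 12, while 9 of them were saturated on some array and the median of the other 6 was 0.29. Of the sex-linked genes, 4 from the Y chromosome were tested, with 0 in either direction and a median of -0.23, which became 0.15 with a normexp background correction. Ddx3y and Eif2s3y were well above background on all 8 arrays, and Xist, of the inactive X chromosome, was too dim to be tested.

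**Figure D3:**
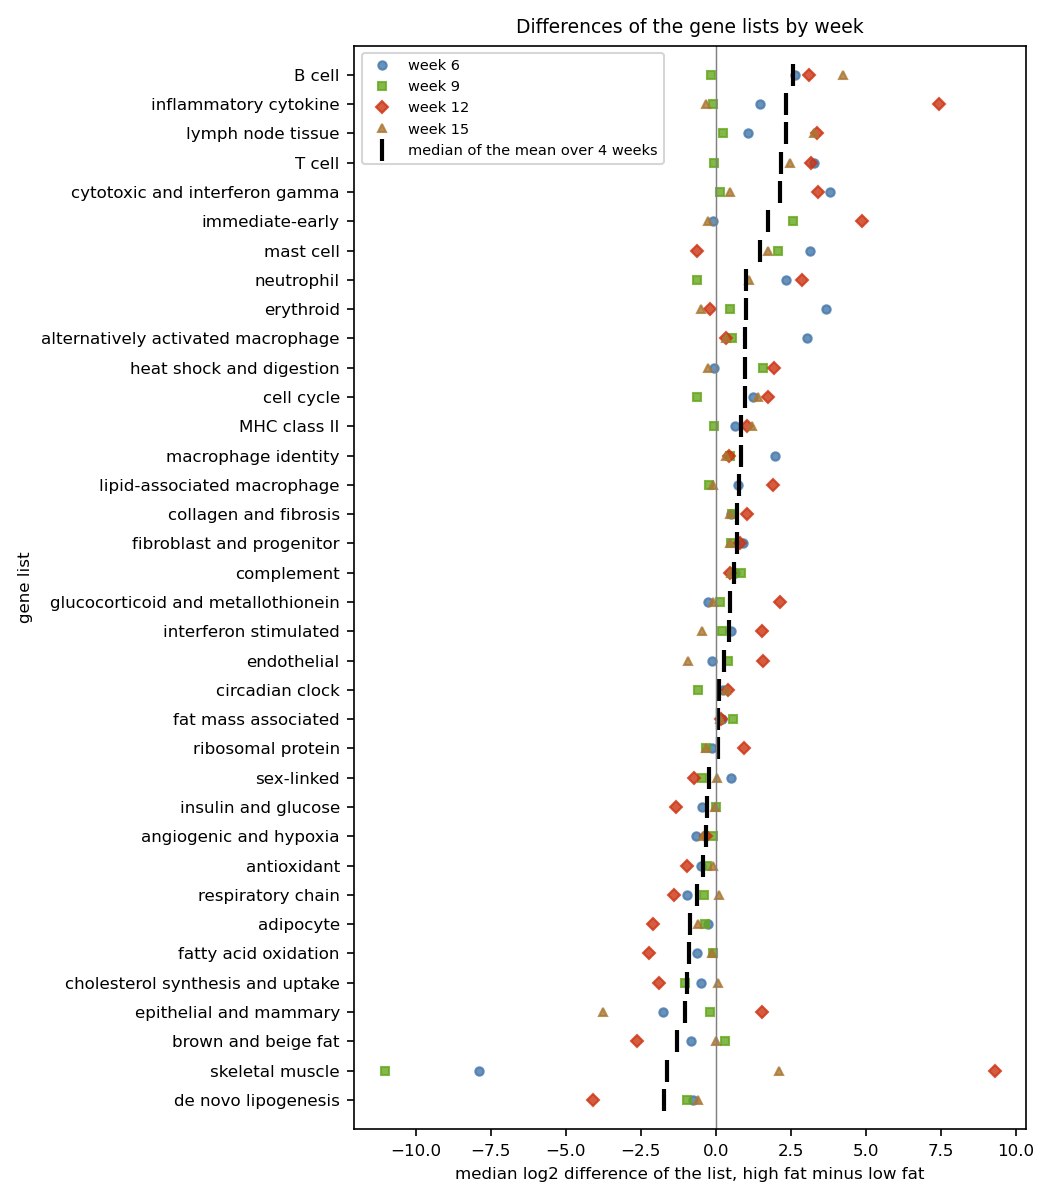
Median log2 difference of each of 36 gene lists, high fat minus low fat, at each week (coloured points) and for the mean over the 4 weeks (black bars). The collagen, fibroblast, complement and macrophage identity lists were above 0 and the lipogenesis and adipocyte lists below 0 in each of the 4 weeks; the muscle list ran from -11.04 to 9.32, and with a normexp background correction the medians of the epithelial, ribosomal and sex-linked lists changed sign.

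The largest differences of single weeks were mostly genes of muscle, sperm and glands. At week 6 the 3 genes furthest above low fat were Tnp1 by 5.60 and Tnp2 by 4.93, which package DNA in sperm, and the globin pseudogene Hba-ps4 by 4.87. Without that week the mean differences of all 3 were negative, at -0.71, -0.97 and -0.55. The 3 genes furthest below low fat at week 6, Pvalb, Trdn and Ckm, and at week 9, Cox6a2, Pgam2 and Cacna1s, are all genes of muscle contraction or its energy supply. Pvalb, a calcium buffer of fast fibres, stood at 5.10, 5.12, -9.22 and -3.49 on low fat and at -4.31, -9.02, 3.54 and -0.73 on high fat. The muscle genes Myh7 and Tnnt3 were in turn among the 3 furthest above it at week 12, and Myl2 at week 15. Over the 11 muscle genes the median of the mean differences was -1.62, which without week 6 was 0.48 and without week 9 was 1.30. At week 9 the meiotic gene Syce2 was higher by 7.32 and stayed within 0.32 in the other 3 weeks. Furthest below low fat at week 12 were the metabolic enzymes Acsm3 with a difference of -7.79, Aspg with -7.41 and Gys2 with -7.24, and without that week the mean difference of Acsm3 was 0.53. At week 15 Agr2, Lman1l and Lrrc26, genes of secretory epithelium, had differences of -8.73, -7.35 and -7.25. Lman1l was at 3.99 on the low-fat array of that week and at -3.36 or below on the other 7, and without week 15 its mean difference was 0.25.

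Against the first 2 weeks of feeding, no gene passed a test of a changed response. The interaction of diet with period, fitted with limma over 9 pairs (days 1, 6, 10 and 14, week 0 and the 4 weeks), called 0 of 25542 genes (0.0%), with a lowest adjusted p of 0.862, and 1316 (5.15%) had an unadjusted p under 0.05. Without the day 14 pair it called 0, with a lowest adjusted p of 0.405, and 2921 genes (11.4%) had an unadjusted p under 0.05. With a normexp background correction and all 9 pairs it called 7842 genes, with a lowest adjusted p of 0.0444. Lymphocyte and lymph node genes had median differences of -1.72 for T cell, -2.44 for B cell and -2.24 for lymph node genes against 2.18, 2.57 and 2.33 at weeks 6 to 15. These early medians rest on days 1, 6 and 10, where those of the 3 lists lay between -7.40 and -2.31, while at day 14 they were 2.47, 2.63 and 2.72 and at week 0 0.31, -0.53 and -0.70. The fatty acid oxidation list had medians of 3.15, 0.46, 0.28 and 2.74 at days 1, 6, 10 and 14. The low-fat array of day 14 had 9104 outlier spots against 55 on its high-fat partner and a median rank correlation of 0.463 with the other arrays, and ribosomal protein and respiratory chain genes were also higher on high fat on that pair, by medians of 3.31 and 2.79. No test was made of these list differences.

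At week 18, the check pair, the 2 arrays differed in the levels of marker genes of several cell types. The low-fat array of that week had mean levels of -2.71 for adipocyte, -3.93 for collagen, 5.05 for neutrophil and 6.56 for erythroid genes, against 2.70, 2.12, 0.19 and 3.91 on the high-fat array. Collagen genes were higher by a median of 7.18 in that week, and adipocyte genes by 5.94. At week 3, with the dim low-fat array, the median difference of all genes was -1.17, that of collagen genes 1.82 and that of macrophage identity genes 0.86. Sfrp4 was higher on high fat in both check weeks, by 2.38 and 4.49, and Ftdc2 lower in both, with differences of -3.89 and -2.39, while S1pr4 had a difference of -2.28 at week 18. With the week 18 pair added to the 4 weeks, the medians of the adipocyte, insulin, hypoxia, muscle and neutrophil lists changed sign, to 0.36, 0.06, 0.04, 0.49 and -0.20.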

How the data were processed

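The arrays measure RNA of material that the labels call subcutaneous SVCs, from mice on 2 diets. The deposited intensities are, per the file headers, single-colour processed signals from Feature Extraction 10.5.1.1 (9.1 in the labels), from which the authors' software had taken the local background, with no scaling from array to array. The fold-change table that the authors also deposited was not used. Of the 22 arrays read for the 2 diets, 8 were compared over weeks 6 to 15, and 10 of days 1 to 14 and week 0 joined them only in the fit of the interaction with period. The 4 of weeks 3 and 18 were left out of both because of a dim array and of an array with unlike levels of marker genes. For the 8 arrays, the 75th percentile intensities and shares above background are given with the data, and the number of arrays limits the precision.

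Outlier spots were dropped, replicate spots were averaged, and the log2 value at the 75th percentile was subtracted within an array. Probes counted as well above background when 50% or more of their spots did. The 40628 probes were matched to names by accession (28136), symbol (4982) or synonym (1406) in RefSeq's GRCm38.p6 table, with the file's name kept for 6104, which gave 29147 names. Each gene took the values of its brightest probe over the 8 arrays and entered the test when that probe was well above background on 2 or more of the 4 arrays of a diet. limma 3.58.1 in R 4.3.3 was fitted with the week as a block, with Benjamini-Hochberg adjustment over all genes at 0.05, and again with the interaction of diet and period. Each SE is the fitted difference divided by its moderated t, so it draws on the spread of all genes. A difference of at least 2-fold in the same direction in all 4 weeks was counted without a test. Pairing was checked by correlating how each array deviates from its diet's mean. Bounds on a fold were computed against the lowest level well above background on each array. Python 3.11.15 with pandas 2.3.3, NumPy 2.4.6, SciPy 1.17.1 and matplotlib 3.10.9 did the rest. The fits were tested on simulated data.

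The named genes were to be up to 10 in each direction that passed the test, filled up by genes with the same sign in 4 of 4 weeks and well above background on all 4 arrays of the higher diet, in order of their smallest difference, then the 3 largest differences in each direction per week among genes well above background and unsaturated on both arrays, and members of 36 gene lists. The members and the lists were chosen with earlier results of these data known. The alternatives comprised quantile normalization, a normexp correction (offset 50), other filters and floors, outlier spots kept, other choices of probe, no block, a week left out, weeks 18 and 3 added, a 1.5-fold threshold, week 9 alone, the study's own test, no day 14 pair, genes with a saturated spot left out, and the low-fat arrays of weeks 9 and 12 exchanged.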

Additional observations from a re-analysis of the deposited data

Results flagged for a closer look

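The levels of 151 genes, the mean levels of the 36 lists and of all genes, and array qualities such as the 75th percentile were looked at over the 4 arrays of each diet, which made 386 sets, and 21 of them had an array far from the others. The measure is the gap between the highest or lowest array and its nearest neighbour, divided by the range of the 4. Chance flags about 1 in 20 such sets. No explanation was tested.

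On low fat, the array of week 6 stood alone for Acox2, on the high side (0.897), and on the low side for Cfp (0.903), Clec10a (0.901) and Cma1 (0.888). The low-fat array of week 12 was lowest for the cell cycle list (0.86). That of week 15 was highest for Lman1l (0.896) and S1pr4 (0.864) and lowest for Cpt1b (0.911) and Csf1r (0.933).

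On high fat, the array of week 9 was lowest for the inflammatory cytokine list (0.836), the immediate-early list (0.852), the ribosomal protein list (0.868), Ccl2 (0.843) and Ccl7 (0.867). It was highest for Acaca (0.861), a carboxylase of fatty acid synthesis, and for Syce2 (0.923). The array of week 6 was highest for Pdzk1ip1 (0.925), Tnp1 (0.873) and Tnp2 (0.831) and lowest for Idi1 (0.838), and that of week 15 was lowest for Gm7191 (0.899), which is at background on high fat.

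The fatty acid oxidation list had negative medians in each of the 4 weeks and positive ones at days 1, 6, 10 and 14, with 0.00 at week 0. The mean of its medians over weeks 6 to 15 minus that over the 5 earlier pairs was -2.09, and this difference was not tested. The low-fat array of day 14 had 9104 outlier spots and a median rank correlation of 0.463 with the other arrays, and on that pair ribosomal protein genes were higher too, by a median of 3.31.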

How the results depend on the processing

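With limma, 0 genes were higher and 0 lower under every alternative setting of that fit, with lowest adjusted p-values between 0.419 and 0.974. Without the week as a block the lowest was 0.974, with 401 genes higher and 424 lower at an unadjusted p under 0.05. The study's own test, run across the weeks, gave 387 higher and 301 lower unadjusted and 0 after adjustment, and week 9 alone had 1783 and 1785 genes past 2-fold.

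The counts of genes at least 2-fold apart in all weeks, 42 higher and 50 lower, moved with most choices. The higher count was 111 with a normexp background correction, 24 with genes well above background on all 8 arrays, 26 with week 18 added, 9 with weeks 3 and 18 added and 218 at 1.5-fold. The lower count was 5, 16, 8, 8 and 264 in the same order, 28 with quantile normalization and 31 with a floor. Leaving out 1 week gave 83 to 355 higher and 159 to 279 lower, since 3 weeks are fewer to pass. Leaving out genes with a saturated spot, chosen after seeing the data, gave 42 and 48. Exchanging the low-fat arrays of weeks 9 and 12, also chosen after seeing the data, gave 122 and 63, the lowest adjusted p of 0.419, and 15.2% of genes lower at week 9.

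Normexp gave 4.75% higher and 6.92% lower at week 6 (against 11.7% and 11.6%), 42.2% and 4.08% at week 9 (8.03% and 8.04%), 46.4% and 12.2% at week 12 (24.4% and 25.2%) and 3.63% and 5.51% at week 15 (6.88% and 16.0%). Quantile normalization gave 9.40% and 10.8% at week 15, and no filter 32.1% and 21.9% at week 12. With genes well above background on all 8 arrays, 5.27% were higher at week 9 and 7.45% lower at week 15. Normexp moved the median of all genes from -0.02 to 0.33. Relative to that median, 32 of 36 lists kept their side and 4 did not, the fat mass, endothelial, clock and ribosomal lists. With normexp the interaction with period called 7842 genes against 0; with the scaling of the report and no day 14 pair it called 0, and both changes together were not run. The cause was not tested for any of these. Of 151 genes followed, 10 changed sign with normexp, 15 with week 18 added, 23 with weeks 3 and 18 added, 13 without week 6, 10 without week 9, 5 without week 12, 1 without week 15 and 0 with quantile normalization. Signal over background limits the dim genes, and 120 of the 151 were well above background on all 8 arrays.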
